A study of Homo sapiens with 12 samples.

Results

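The polo-like kinases PLK1, PLK2, PLK3 and PLK4 were followed across every group of a microarray study of the Ewing sarcoma line A673, whose tumour driver is the EWS-FLI1 fusion protein. They were taken by their annotated symbols, each had 1 probe set, and they make up 4 of the 18404 genes that could be tested. They were chosen by their log2 differences between these groups in earlier results, so their own levels and differences are given as a description, without p-values. RNA was hybridised to 12 arrays in 6 groups of 2. One pair of groups carried a lentiviral shRNA against FLI1, whose target sequence is shared by the fusion transcript, or against lacZ, a bacterial gene with no counterpart in these cells, and was harvested 48 h on, both after puromycin selection. The other groups were untreated cells at 0 h and cells held for 24 h in DMSO, the vehicle, in 5 nM actinomycin D or in 50 nM actinomycin D, a drug that binds DNA and blocks transcription. All 6 groups are the same line, with 1 shRNA for each target. The authors describe duplicate treatments for DMSO and 5 nM actinomycin D, and do not say so for the other groups. The labels do not say that the 2 arrays of a group came from separate cultures. Every p-value and interval thus rests on a spread between arrays, shared by all groups, that may be largely technical.

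Polo-like kinases are serine/threonine kinases with a polo-box domain that steers them to their substrates. PLK1 drives entry into mitosis, centrosome maturation, the spindle and cytokinesis, and its transcript accumulates towards mitosis. PLK4 starts the duplication of centrioles. PLK2 and PLK3 were first described as early-response genes that serum and stress induce, and PLK2 is also a known target of p53. Ewing sarcoma cells depend on EWS-FLI1, which binds GGAA motifs as an ETS factor.

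The values are log2 signals, and a difference of 1 on this scale is a doubling or halving. Signals of different genes depend on their probes, so each gene was compared only with itself. FLI1, the targeted gene, had 7.30 and 7.08 on the FLI1 shRNA arrays, against 8.63 and 8.45 on the lacZ shRNA arrays, which left 39.2% of the control signal (difference -1.35, SE 0.09, limma adjusted p = 5.4e-06). It fell in 50 nM actinomycin D as well (-0.95, SE 0.09, adjusted p = 1.7e-05), and not past the threshold of an adjusted p under 0.05 in 5 nM (-0.08, SE 0.09, adjusted p = 0.48). Of 10 Ewing sarcoma markers 9 were measured, all 9 with mean signals above the 7.45 of the median gene, whereas 0 of 5 blood and 0 of 5 endothelial markers and 3 of 8 epithelial ones (KRT8, KRT18 and KRT14) lay above it. Array medians lay between 6.67 and 6.83, and the arrays of a group correlated at 0.994 to 0.996 over all genes.

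The 250 bases before the annotated start of each gene are shown as a description of 4 windows that share none of the motifs found (RefSeq, GRCh38.p14, sense strand of the gene, motif matches in capitals). They are chr16:23678639-23678888 on the plus strand for PLK1, chr5:58460087-58460336 on the minus strand for PLK2, chr1:44800127-44800376 on the plus strand for PLK3 and chr4:127880643-127880892 on the plus strand for PLK4, which has 3 start windows in the table, the one at the start of the gene being printed.
PLK1: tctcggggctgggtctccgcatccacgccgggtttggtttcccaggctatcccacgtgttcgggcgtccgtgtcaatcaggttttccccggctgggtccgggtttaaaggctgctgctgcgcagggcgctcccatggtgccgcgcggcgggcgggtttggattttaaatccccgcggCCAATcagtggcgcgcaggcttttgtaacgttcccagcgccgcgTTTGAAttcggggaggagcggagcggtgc
PLK2: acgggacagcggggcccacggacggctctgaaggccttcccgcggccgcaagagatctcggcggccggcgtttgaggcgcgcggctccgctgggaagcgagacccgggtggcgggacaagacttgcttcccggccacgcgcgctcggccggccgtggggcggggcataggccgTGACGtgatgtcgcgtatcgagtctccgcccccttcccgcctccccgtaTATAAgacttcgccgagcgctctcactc
PLK3: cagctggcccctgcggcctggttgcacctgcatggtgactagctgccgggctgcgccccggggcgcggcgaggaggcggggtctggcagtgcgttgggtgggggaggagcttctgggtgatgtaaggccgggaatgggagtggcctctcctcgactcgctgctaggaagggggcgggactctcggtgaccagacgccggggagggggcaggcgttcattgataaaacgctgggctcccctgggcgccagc
PLK4: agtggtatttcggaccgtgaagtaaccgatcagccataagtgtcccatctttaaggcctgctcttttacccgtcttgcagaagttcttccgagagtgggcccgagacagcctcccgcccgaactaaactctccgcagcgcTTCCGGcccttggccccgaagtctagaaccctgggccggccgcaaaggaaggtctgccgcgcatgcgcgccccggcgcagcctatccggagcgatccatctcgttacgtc
Both strands were searched for 7 motifs. These were TTTGAA, the cell cycle homology element of many mitotic genes, the CCAAT box, TGACG, the core of a cyclic AMP response element, the TATA box as TATAA, the ETS motif CCGGAA, the GGAA repeat unit GGAAGGAA and the sequence ATGCAT. No 2 matches overlapped. PLK1 held CCAAT at -73 to -69 and TTTGAA at -29 to -24, counted from the start. These are found in 32% and 13.3% of the 35116 human windows of the same length. PLK2 held TGACG at -77 to -73 and TATAA at -28 to -24, found in 21.2% and 18.9% of windows. PLK4 held CCGGAA on the opposite strand at -110 to -105, as do 14.5% of windows, and PLK3 held none of the 7 motifs. GGAAGGAA (3.06% of windows) and ATGCAT (3.49%) were in none of the 4. Actinomycin D prefers GpC steps in DNA, and these numbered 30 in PLK1, 33 in PLK2, 31 in PLK3 and 25 in PLK4, against a median of 20 over all windows. These counts lie at percentiles 76.7, 83, 78.9 and 63.9 of all windows, so many other windows hold as many. A match is a description of the letters and says nothing of binding, and a link of the letters to the members' signals was not tested.

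**Figure D1:**
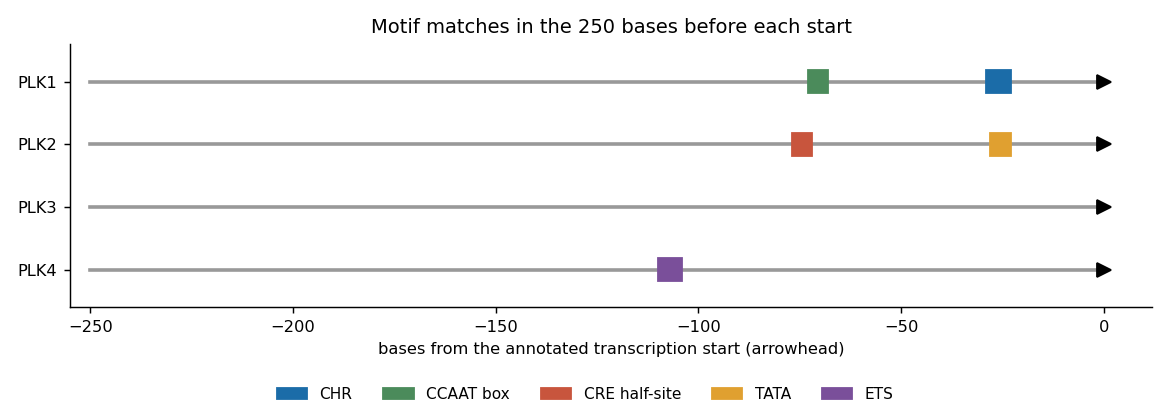
Position of each motif match (horizontal axis, bases before the annotated start) in the 250 base windows of the 4 genes, coloured by motif. The strand of a match is not shown. PLK1 and PLK2 have 2 matches each, PLK4 has 1 and PLK3 has none.

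PLK2 had the widest range of the members. Its signals were 5.68 and 5.84 in untreated cells, 5.74 and 5.63 in DMSO, 10.46 and 10.49 in 5 nM actinomycin D and 8.45 and 8.38 in 50 nM. Under FLI1 shRNA they were 6.89 and 6.88, against 5.62 and 5.43 under lacZ shRNA. Both doses and the knock-down stood clear of their controls, and the lower dose was the higher of the 2. The control signals were low, and no detection call was used. Among all genes the PLK2 mean lay at percentile 22.7 in DMSO and 19.7 under lacZ shRNA. It lay at percentile 41.4 under FLI1 shRNA, 67.5 in 50 nM and 91.2 in 5 nM. In 5 nM the PLK2 signal was 27.6-fold that in DMSO (log2 difference 4.79, SE 0.09, 95% interval 4.60 to 4.98), the largest increase of the 18404 genes. In 50 nM it was 6.62-fold (2.73, SE 0.09), the second largest, and under FLI1 shRNA 2.57-fold that under lacZ shRNA (1.36, SE 0.09), the increase ranked 85. The 2 doses thus differed by -2.06 (50 nM minus 5 nM, SE 0.09). Its group means ran from lacZ shRNA through DMSO, untreated, FLI1 shRNA and 50 nM to 5 nM, and only DMSO and untreated overlapped as neighbours. The whole range of these means was 4.95, the second widest of all genes, where the median gene had 0.55.

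PLK3, which acts in stress responses and in the Golgi and cell cycle, stood apart in 1 group only. It had 7.51 and 7.48 in untreated cells, 7.28 and 7.54 in DMSO, 9.13 and 8.89 in 5 nM and 7.35 and 7.36 in 50 nM. FLI1 shRNA arrays gave 7.34 and 7.41, against 7.63 and 7.40 for lacZ shRNA. The 5 nM signal was 3.04-fold that in DMSO (1.61, SE 0.11, 95% interval 1.36 to 1.85), the increase ranked 100 of 18404. The other 5 groups overlapped one another in the order of their means: the difference was -0.05 (SE 0.11) for 50 nM against DMSO and -0.13 (SE 0.11) for FLI1 against lacZ shRNA. Without the second DMSO array the first of these changed sign, to 0.08.

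PLK1 had 12.64 and 12.63 in untreated cells, 12.50 and 12.58 in DMSO, 12.20 and 12.26 in 5 nM and 11.20 and 11.11 in 50 nM. The signal thus stepped down with dose, without overlap. FLI1 shRNA arrays gave 12.22 and 12.25, against 12.42 and 12.39 for lacZ shRNA. In 50 nM it was 38.3% of that in DMSO (-1.38, SE 0.07), in 5 nM 80.8% (-0.31, SE 0.07), and under FLI1 shRNA 88.8% of that under lacZ shRNA (-0.17, SE 0.07). The arrays of this last pair did not overlap although the gap was small. PLK1 varied least between arrays of 1 group, by at most 0.09, and its 50 nM decrease ranked 382 among the largest decreases.

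PLK4 had 9.74 and 9.93 in untreated cells, 9.89 and 9.87 in DMSO, 10.17 and 10.18 in 5 nM and 8.76 and 8.63 in 50 nM. The 5 nM arrays were thus the highest of the 12 and the 50 nM arrays the lowest. Under FLI1 shRNA it had 9.05 and 9.17, against 9.84 and 9.67 under lacZ shRNA. It was 44.1% of the DMSO signal in 50 nM (-1.18, SE 0.09) and 64.0% of the lacZ shRNA signal under FLI1 shRNA (-0.64, SE 0.09). The 5 nM difference was 0.30 (SE 0.09, 95% interval 0.10 to 0.50). With arrays centred on ribosomal protein genes it became -0.06, so its direction depends on the scaling. Untreated, DMSO and lacZ shRNA arrays overlapped as neighbours, and the other neighbours in its order of means did not.

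**Figure D2:**
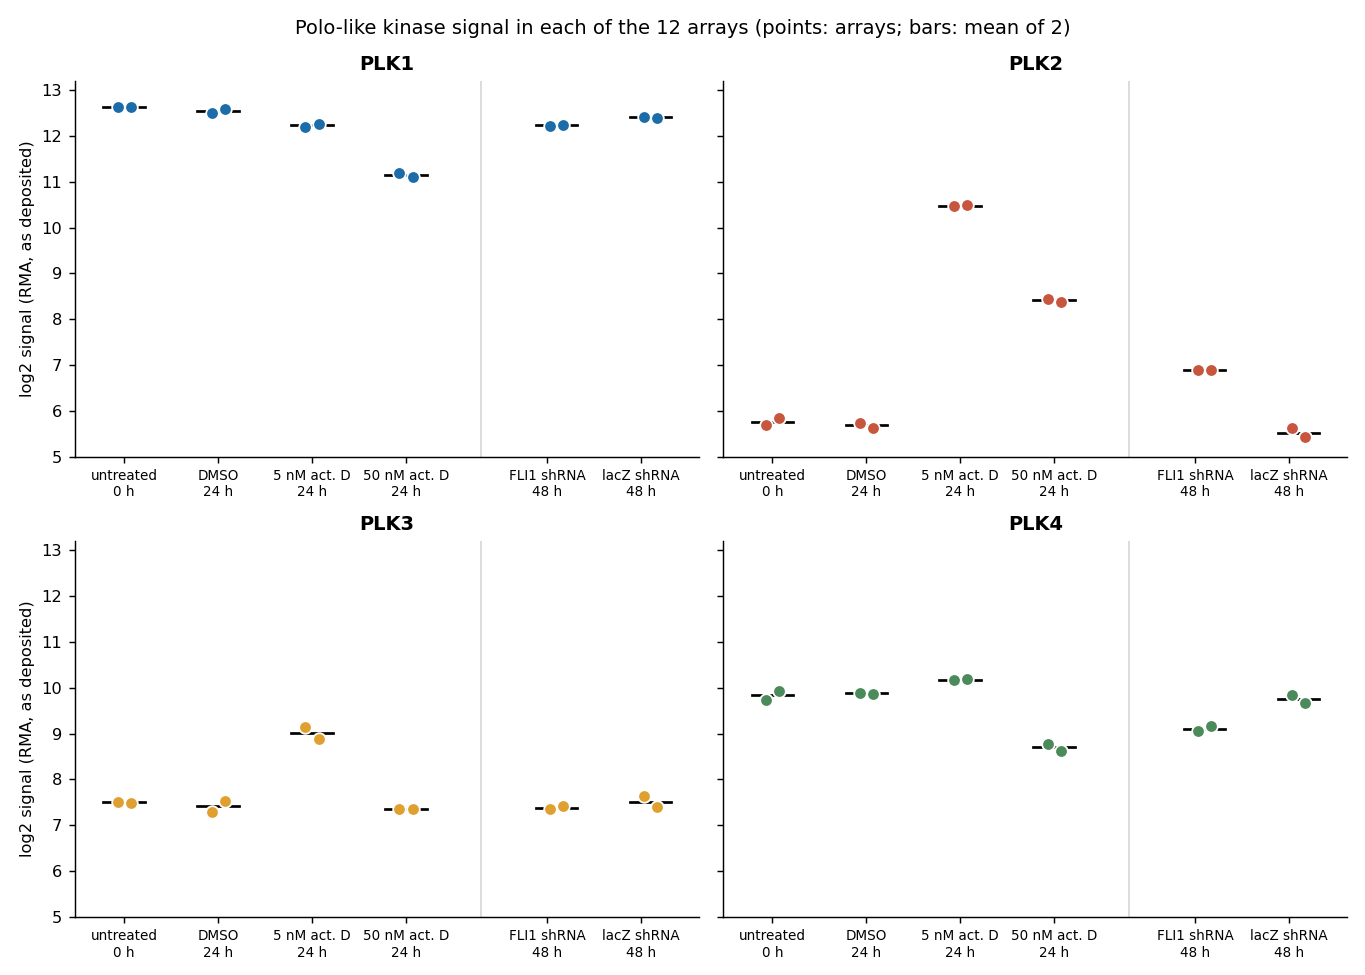
Log2 signal (vertical axis) of each polo-like kinase on the 12 arrays, 1 point for each array, with a line at the mean of each group of 2. PLK2 is highest in 5 nM at 10.46 and 10.49, and PLK1 is lowest in 50 nM at 11.20 and 11.11. Signals are comparable within a gene only.

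PLK5, the remaining family member, was no member of the group followed here. It lay between 6.26 and 6.89 over the 12 arrays, a low signal. Among all genes its mean was at percentile 35.8 in DMSO and 41.2 in 50 nM. Both 50 nM arrays were at 6.89, the highest of the 12, against 6.48 and 6.50 in DMSO, a rise of 0.40 (SE 0.10, limma adjusted p = 0.0075) on the arrays where PLK1 and PLK4 were lower. In the other 4 comparisons of groups PLK5 was not called.

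Read by comparison, the knock-down of FLI1 went with a higher PLK2 and a lower PLK4, 1 member called in each direction against 14.6% of all genes called higher and 9.28% called lower (limma, adjusted p under 0.05). In 5 nM actinomycin D 3 members were called higher (PLK2, PLK3 and PLK4) and 1 lower (PLK1), where 30.3% of all genes were called higher and 23% lower. In 50 nM 1 was called higher (PLK2) and 2 lower (PLK1 and PLK4), with 25.8% and 23.3% over all genes. Both doses share the DMSO arrays. Going from 5 nM to 50 nM all 4 members were called lower, with differences of -1.08 for PLK1, -2.06 for PLK2, -1.66 for PLK3 and -1.48 for PLK4, where 23.1% of all genes were called lower and 21.6% higher. Because the members were chosen with these contrasts known, nothing is read from their counts. In DMSO against untreated cells the 4 differences lay between -0.09 and 0.04, and 1 gene of all (0.00543%) was called, the immediate-early gene FOSB (1.37, SE 0.11, adjusted p = 0.0017). At an unadjusted p under 0.05 there were 1383.

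**Figure D3:**
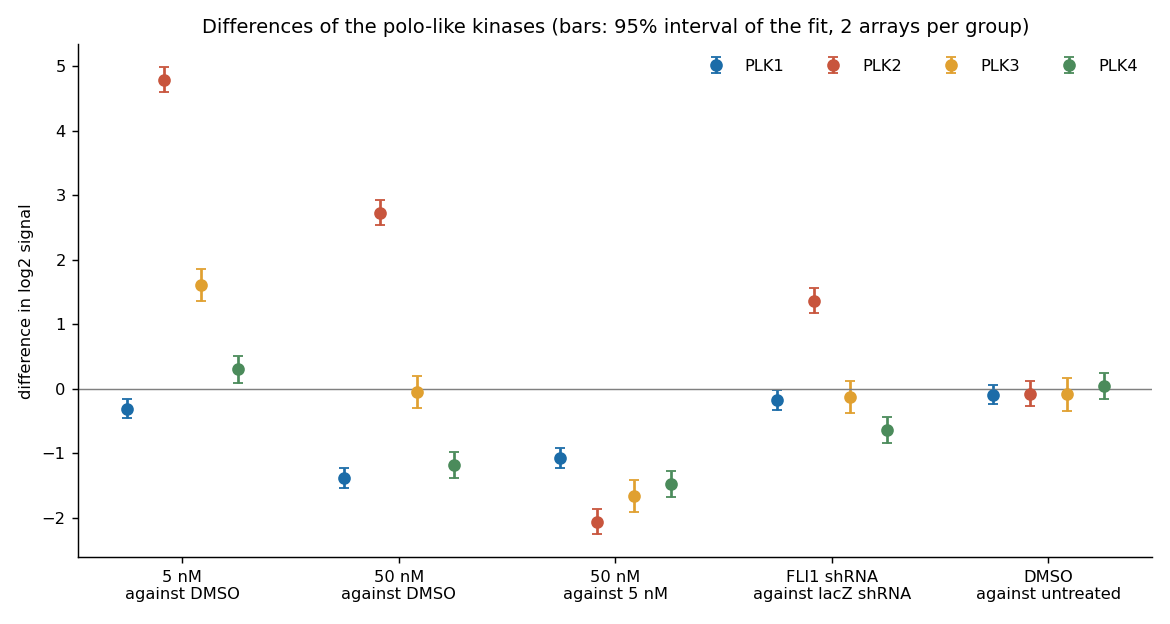
Log2 difference (vertical axis) of each polo-like kinase in the 5 comparisons, with 95% intervals for single genes, not adjusted for the number of genes, from the fit over all 12 arrays. PLK2 is above 0 in the knock-down and in both doses, while PLK4 is at -0.64 in the knock-down, 0.30 in 5 nM (-0.06 with ribosomal protein centring) and -1.18 in 50 nM.

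The knock-down and the 5 nM treatment were set against each other as a difference of differences, since the drug was studied for its action on EWS-FLI1. The knock-down difference minus the 5 nM difference was -3.42 for PLK2 (SE 0.12), the lowest value of all 18404 genes. It was -1.74 (SE 0.16) for PLK3, -0.94 (SE 0.13) for PLK4 and 0.14 (SE 0.10) for PLK1. The times differ, 48 h after shRNA and 24 h in the drug, so the values stand side by side and are not matched.

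RMA scales all arrays together, so these are relative levels, although array medians still lay between 6.67 and 6.83. In bulk RNA fewer cells of a kind and less RNA per cell cannot be told apart. The median gene stood at -0.01 in the knock-down, 0.12 in 5 nM and 0.10 in 50 nM, so that PLK4 in 5 nM was 0.18 above the median gene. A repeated quantile step put the median gene at 0.01 in 5 nM and 0.03 in 50 nM. The share of calls that were higher was then 48.2% in 5 nM and 48.4% in 50 nM. With each array centred on 56 cytoplasmic ribosomal protein genes the median gene stood at -0.24 and -0.16. With this centring the share of calls that were higher became 17% in 5 nM, against 56.9% as deposited, and 11.9% in 50 nM, against 52.5%. For 50 nM against 5 nM it became 59.2%, where it had been 48.3%. PLK2 remained higher in 5 nM by 4.43 and in 50 nM by 2.47, PLK3 higher in 5 nM by 1.25, and PLK1 and PLK4 stood at -1.64 and -1.44 in 50 nM.

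The genes around each kinase were drawn up as lists from general knowledge, with earlier results of these arrays known, and their counts are descriptions. The arrays read RNA, so kinase activity and the breakdown of substrate proteins were not measured. The background over all genes, higher and lower, was 14.6% and 9.28% in the knock-down, 30.3% and 23% in 5 nM and 25.8% and 23.3% in 50 nM, with medians of -0.01, 0.12 and 0.10. Each list is set beside these shares. Of 21 genes for entry into mitosis and the control of PLK1, 0 rose and 10 fell under FLI1 shRNA, with a median of -0.10. CLSPN, the checkpoint adaptor that PLK1 marks for destruction, fell by 1.33 (SE 0.14, limma adjusted p = 8.6e-05). CDC25A, a phosphatase that activates CDK, fell by 0.93 (SE 0.08, adjusted p = 1.7e-05), and FBXO5, the inhibitor of the anaphase-promoting complex that PLK1 also targets, by 0.81 (SE 0.10, adjusted p = 0.00015). In 5 nM 4 rose and 8 fell, with a median of 0.05 (3 and 15, median -0.31, with ribosomal protein centring). There PKMYT1 and WEE1, both kinases that hold CDK1 inactive, rose by 0.98 (SE 0.07, adjusted p = 9.5e-07) and 0.95 (SE 0.09, adjusted p = 7.5e-06), and PPP1R12A, a phosphatase subunit that opposes PLK1, fell by 1.61 (SE 0.08, adjusted p = 6.8e-08). In 50 nM 1 rose and 17 fell, with a median of -0.80, on the arrays where PLK1 itself was at -1.38. AURKA, the kinase that activates PLK1, had 9.15 and 9.31 in 50 nM, against 10.63 and 10.63 in DMSO, and fell by 1.41 (SE 0.08, adjusted p = 3.7e-07). FBXO5 fell by 1.76 there (SE 0.10, adjusted p = 2.4e-07), although it rose by 0.93 in 5 nM (SE 0.10, adjusted p = 1.2e-05). As shares of the list, 0% rose and 47.6% fell in the knock-down, 19% and 38.1% in 5 nM and 4.76% and 81% in 50 nM.

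Of 30 docking partners and M-phase substrates of PLK1, 1 rose and 10 fell under FLI1 shRNA (median -0.19), 6 rose and 17 fell in 5 nM (median -0.29, or 3 and 23 with ribosomal protein centring), and 2 rose and 21 fell in 50 nM (median -0.39). As shares these were 3.33% and 33.3%, 20% and 56.7%, and 6.67% and 70%, against 14.6% and 9.28%, 30.3% and 23%, and 25.8% and 23.3% of all genes. The 10 that fell under FLI1 shRNA became 6 without the first FLI1 shRNA array and 5 without the first lacZ shRNA array. The microtubule tip protein CLIP1 was the 1 that rose (0.83, SE 0.07, adjusted p = 2.6e-05), and the kinesin KIF2C fell by 0.66 (SE 0.08, adjusted p = 0.00017). In 5 nM the cohesin subunit STAG2 fell by 2.19 (SE 0.09, adjusted p = 1.5e-08) and the spindle checkpoint kinase BUB1B by 1.99 (SE 0.08, adjusted p = 1e-08), whereas securin, PTTG1, rose by 0.98 (SE 0.07, adjusted p = 1.1e-06). In 50 nM the helicase ERCC6L fell by 2.22 (SE 0.12, adjusted p = 2.4e-07) and the cytokinesis kinesin KIF23 by 1.60 (SE 0.07, adjusted p = 7.8e-08). ERCC6L was higher in 5 nM, by 0.48 (SE 0.12). BIRC5, or survivin, rose at both doses, by 0.59 (SE 0.08, adjusted p = 1e-04) in 5 nM and by 0.50 (SE 0.08, adjusted p = 0.00051) in 50 nM. PTTG1 did so too, with a rise of 0.46 (SE 0.07, adjusted p = 0.00047) in 50 nM.

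Of 24 measured genes of centriole duplication and PLK4 turnover, 3 rose and 8 fell under FLI1 shRNA (median -0.17), 6 rose and 14 fell in 5 nM (median -0.50, or 2 and 18 with ribosomal protein centring), and 2 rose and 14 fell in 50 nM (median -0.45). In shares, 12.5% rose and 33.3% fell in the knock-down, 25% and 58.3% in 5 nM and 8.33% and 58.3% in 50 nM, where all genes had 14.6% and 9.28%, 30.3% and 23%, and 25.8% and 23.3%. The 8 that fell under FLI1 shRNA became 4 without the first FLI1 shRNA array and 4 without the first lacZ shRNA array. STIL, which PLK4 phosphorylates at the start of a procentriole, had 8.66 and 8.68 in 50 nM, against 10.19 and 10.11 in DMSO, and fell by 1.48 (SE 0.07, adjusted p = 1.5e-07). SASS6, which builds the cartwheel of the new centriole, fell by 1.68 in 5 nM (SE 0.11, adjusted p = 2.7e-07) and by 1.46 in 50 nM (SE 0.11, adjusted p = 1.6e-06). CEP152, a scaffold that recruits PLK4, fell by 0.49 under FLI1 shRNA (SE 0.11, adjusted p = 0.0099), and BTRC, an F-box protein that brings PLK4 to degradation, rose by 0.54 there (SE 0.09, adjusted p = 0.0011) and fell by 2.01 in 5 nM (SE 0.09, adjusted p = 2.1e-08). So PLK4 in 5 nM was not below DMSO as deposited while 14 of the 24 genes of this list fell, with PLK4's own sign open to the scaling as above.

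Of 13 measured substrates of PLK2 and PLK3, 4 rose and 4 fell under FLI1 shRNA (median -0.01). In 5 nM 1 rose and 7 fell (median -0.20, or 0 and 10 with ribosomal protein centring, and 3 and 8 after a repeated quantile step). In 50 nM 2 rose and 6 fell (median -0.18, or 0 and 11 with ribosomal protein centring). The shares were 30.8% each way in the knock-down, 7.69% and 53.8% in 5 nM and 15.4% and 46.2% in 50 nM, beside 14.6% and 9.28%, 30.3% and 23%, and 25.8% and 23.3% of all genes. SIPA1L1, a synaptic RapGAP that PLK2 marks for degradation in neurons, had 7.63 and 7.58 in 5 nM and 10.01 and 10.08 in 50 nM, against 11.02 and 11.02 in DMSO. It fell by 3.41 in 5 nM (SE 0.07, adjusted p = 6.1e-10) and by 0.98 in 50 nM (SE 0.07, adjusted p = 1e-06). Under FLI1 shRNA SIPA1L1 was not called (-0.18, SE 0.07, adjusted p = 0.076). Its protein was not measured, and a link of its RNA to PLK2 was not tested. SIPA1L1, RAPGEF2 and VRK1 all lie in the longest of 4 equal classes by genomic span, of which 56.1% fell in 5 nM. RAPGEF2, a Rap exchange factor and also a neuronal PLK2 substrate, fell by 1.84 in 5 nM (SE 0.09, adjusted p = 4.4e-08) and fell by 1.58 in 50 nM (SE 0.09, adjusted p = 3.2e-07), and rose by 0.66 under FLI1 shRNA (SE 0.09, adjusted p = 0.00037). VRK1, through which PLK3 acts on the Golgi, fell by 1.28 in 5 nM (SE 0.08, adjusted p = 1.8e-07) and fell by 0.67 under FLI1 shRNA (SE 0.08, adjusted p = 0.00012).

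The p53 targets and the immediate-early genes were counted because PLK2 and PLK3 are known members of such programmes, and neither kinase is in the counts. Of 23 measured p53 targets, 9 rose and 3 fell under FLI1 shRNA (median 0.12), 14 rose and 2 fell in 5 nM (median 0.27), and 6 rose and 11 fell in 50 nM (median -0.28). Over all genes 14.6% rose and 9.28% fell in the knock-down, 30.3% and 23% in 5 nM and 25.8% and 23.3% in 50 nM, with medians of -0.01, 0.12 and 0.10. The list had 39.1% and 13% in the knock-down, 60.9% and 8.7% in 5 nM and 26.1% and 47.8% in 50 nM. With ribosomal protein centring, which moves all genes of an array by 1 value, the last pairs became 6 and 6 in 5 nM (median -0.09, where the median of all genes was -0.24) and 1 and 14 in 50 nM. The list median stood 0.15 above that of all genes in 5 nM. The 6 that rose in 50 nM became 3 without the first DMSO array or without either 50 nM array. GADD45A, which acts in growth arrest, rose by 1.40 in 5 nM (SE 0.06, adjusted p = 2.9e-08), 0.42 in 50 nM (SE 0.06, adjusted p = 0.00033) and 0.75 under FLI1 shRNA (SE 0.06, adjusted p = 1.9e-05). The 3 that fell under FLI1 shRNA were AEN by 0.99 (SE 0.09, adjusted p = 3.5e-05), FAS by 0.41 (SE 0.07, adjusted p = 0.0025) and DDB2 by 0.29 (SE 0.07, adjusted p = 0.012). CDKN1A, the CDK inhibitor p21, rose by 1.18 in 5 nM (SE 0.06, adjusted p = 7.9e-08), and MDM2, which degrades p53, fell by 0.60 (SE 0.08, adjusted p = 6.3e-05). PPM1D, a phosphatase that dampens p53, fell by 2.14 in 50 nM (SE 0.11, adjusted p = 2.1e-07).

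Of 33 measured immediate-early genes, 12 rose and 5 fell under FLI1 shRNA (median 0.10), 29 rose and 1 fell in 5 nM (median 1.01), and 16 rose and 12 fell in 50 nM (median 0.18, or 11 and 16 with a median of -0.08 with ribosomal protein centring). In 5 nM 23 rose and 3 fell with that centring. The deposited values gave shares of 36.4% and 15.2% in the knock-down, 87.9% and 3.03% in 5 nM and 48.5% and 36.4% in 50 nM, against the same shares of all genes as for the p53 targets. The 12 that rose under FLI1 shRNA became 7 without the first FLI1 shRNA array or the second lacZ shRNA array, and the 5 that fell became 3 without either FLI1 shRNA array or the first lacZ shRNA array. NR4A2, a nuclear receptor of the early response, had 10.29 and 10.55 in 5 nM and 7.67 and 7.56 in 50 nM, against 6.88 and 6.94 in DMSO. It rose by 3.51 in 5 nM (SE 0.12, adjusted p = 5.8e-09), the same order of doses as PLK2. The matricellular genes CCN1 and CCN2 rose by 1.52 (SE 0.07, adjusted p = 6.3e-07) and 1.28 (SE 0.08, adjusted p = 3.4e-06) under FLI1 shRNA. They also rose with the drug, by 1.99 (SE 0.07) and 2.00 (SE 0.08) in 5 nM and by 0.42 (SE 0.07) and 0.40 (SE 0.08) in 50 nM. EGR1, a zinc finger factor and the 1 that fell in 5 nM, fell by 0.60 there (SE 0.10, adjusted p = 0.00055) and by 1.23 in 50 nM (SE 0.10, adjusted p = 4.3e-06). MYC fell by 1.52 in 50 nM (SE 0.08, adjusted p = 1.8e-07) and by 0.64 under FLI1 shRNA (SE 0.08, adjusted p = 2e-04), but rose by 0.33 in 5 nM as deposited (SE 0.08).

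**Figure D4:**
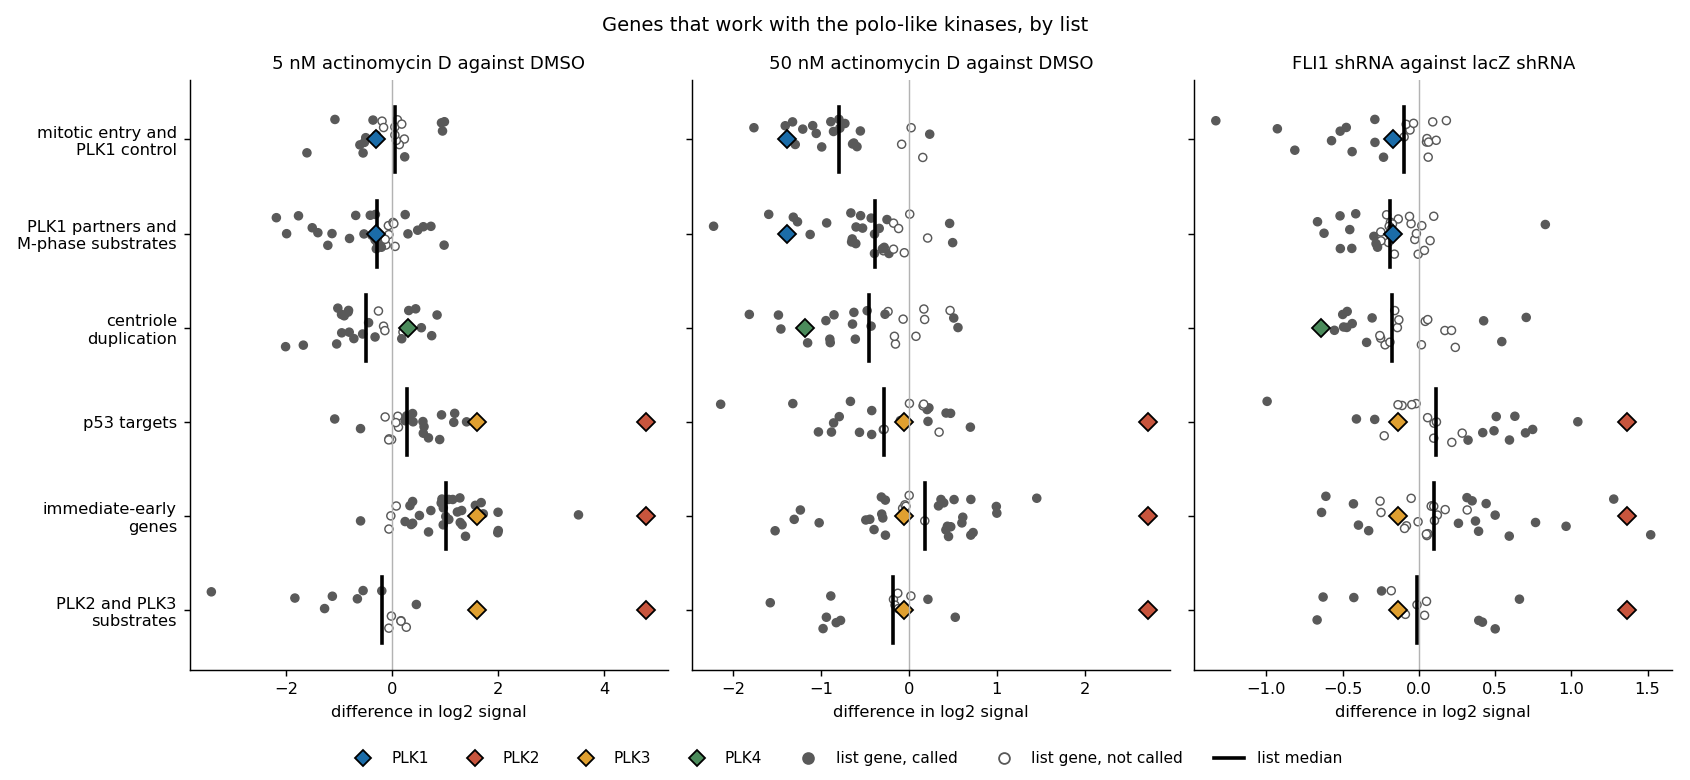
Log2 difference (horizontal axis, a different scale in each of the 3 panels) of each gene of the 6 lists in FLI1 shRNA against lacZ shRNA and in 5 nM and 50 nM actinomycin D against DMSO, with filled points for called genes, a line at each list's median and diamonds for the kinases, which are not in the lists. The immediate-early genes have a median of 1.01 in 5 nM, and the genes of mitotic entry one of -0.80 in 50 nM.

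Gene length moved with the drug effect. In 5 nM the median difference was 0.26 for the shortest of 4 equal classes by genomic span and 0.22, 0.03 and -0.40 in the next classes, over 16898 genes with a RefSeq span. Of the shortest class 47.2% were called higher and 3.67% lower, and of the longest 7.03% higher and 56.1% lower. In 50 nM the medians were 0.21, 0.11, 0.02 and -0.03. PLK3 and PLK2 have spans of 5614 and 6105 bases and lie in the shortest class, and PLK1 with 11479 and PLK4 with 18332 lie in the second. The part of span in the members' values was not tested.

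Over the 12 arrays PLK1 and PLK4 correlated at 0.78, PLK2 and PLK3 at 0.78 and PLK3 and PLK4 at 0.58, while PLK1 and PLK2 were at -0.50, PLK1 and PLK3 at 0.10 and PLK2 and PLK4 at -0.01. These are descriptions over 12 points that share their 6 groups and their normalization. By the same Pearson measure the genes most like PLK1, among those above the median mean signal, were MSL2 (0.993), TENT4A (0.993), TEX10 (0.992), CCNF (0.992), which encodes cyclin F, and SRCAP (0.991). Nearest to PLK4 were the nuclease gene DCLRE1B (0.992), PAXBP1 (0.990), the spindle gene FAM83D (0.989), CDK1 (0.988), the kinase of mitotic entry, and TFB2M (0.986). CDK1 had -0.52 under FLI1 shRNA, 0.18 in 5 nM and -0.79 in 50 nM, beside -0.64, 0.30 and -1.18 for PLK4.

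Nearest to PLK2 were the autophagy gene ATG12 (0.991), MED19 (0.990), a subunit of Mediator, CNPY2 (0.989), PTGER4 (0.988), a prostaglandin E2 receptor, and SPATA20 (0.987). PTGER4 differed by 0.29 in the knock-down, 2.02 in 5 nM and 1.05 in 50 nM, the same order as PLK2 with smaller sizes. Nearest to PLK3 were OXLD1 (0.991), CLP1 (0.988), an RNA kinase, TRMT5 (0.987), NR1D1 (0.984), a clock repressor, and HOXC8 (0.984). At a correlation above 0.95 stood 124 genes for PLK1, 132 for PLK2, 91 for PLK3 and 54 for PLK4. When correlations were taken over the 6 group means instead, 0 of the 5 named genes stayed among the top 5 for PLK1 and for PLK2, 3 for PLK3 and 4 for PLK4, so the names for PLK1 and PLK2 are 5 out of many near-equal ones.

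**Figure D5:**
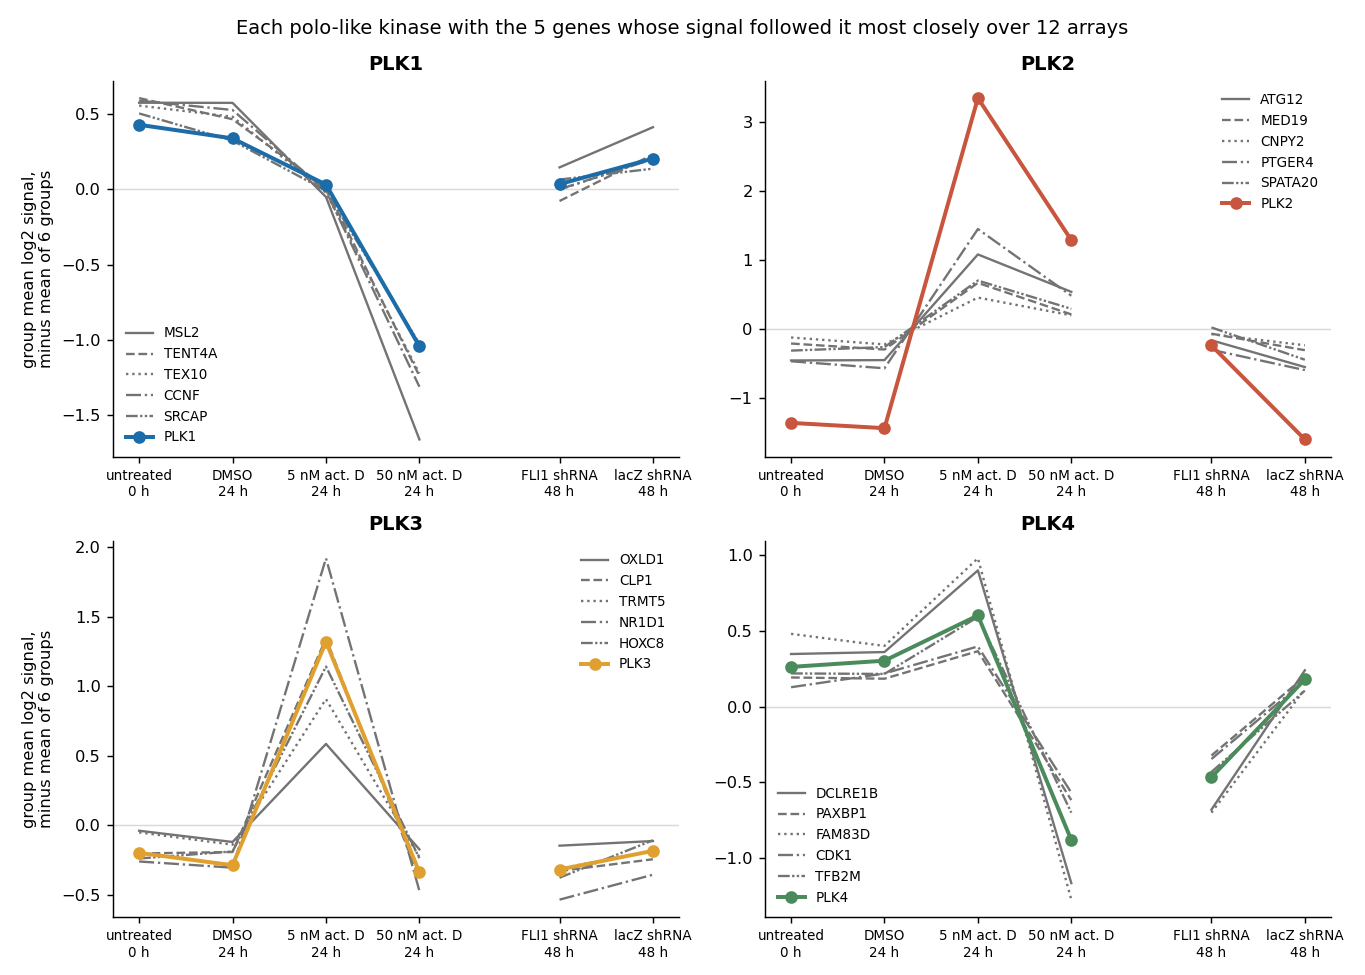
Mean log2 signal of each group minus the mean of the 6 groups (vertical axis, a different scale in each panel) for each polo-like kinase, as coloured points, and for the 5 genes with the highest Pearson correlation to it over 12 arrays, as grey lines. The profiles of PLK2 and its neighbours peak in 5 nM, where the PLK2 arrays read 10.46 and 10.49.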

How the data were processed

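RNA from A673 cells was measured on 12 Affymetrix Gene ST arrays, 2 in each of 6 groups, grouped by their labels. The authors normalized the arrays by RMA in the affy package (version not given in the sources used here) and deposited log2 signals, which were used as they stand. No raw scan was used here, and 0 value columns were without a sample. The 2 arrays in each group limit the precision.

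Of 32321 rows, 19158 have 1 gene symbol, 1388 several and 11775 none. Only the first were used. The probe set with the highest mean stood for each of 637 genes with several, leaving 18404 genes. A mean was fitted for each group over all 12 arrays with limma 3.58.1 in R 4.3.3 (6 residual and 4.45 prior degrees of freedom), with Benjamini-Hochberg adjustment over all genes in each comparison and a threshold of 0.05. The fit was tested on simulated data.

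The members and lists were chosen with earlier results of these data known. Genes were named by rule: the polo-like kinases, FLI1, the 5 genes most correlated with each member, and up to 3 called genes in each direction from each list. AURKA, STIL, SIPA1L1 and NR4A2 come from those, and their values on single arrays were chosen for print after being seen. The lists cover mitotic entry and PLK1 control, PLK1 docking partners and M-phase substrates, PLK4 centriole duplication, p53 targets, immediate-early genes, and PLK2 and PLK3 substrates, which shares CDC25C with the first. Some list genes, among them CENPJ, BTG2, FDXR and EGR2, are not analysed here. Promoter windows and spans are from RefSeq, GRCh38.p14. The alternatives were a repeated quantile step, centring on ribosomal protein genes, leaving out dim genes, averaged probe sets, a trended and robust variance, only the arrays compared, a replicate block, and leaving out each array.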

Additional observations from a re-analysis of the deposited data

How the results depend on the processing

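Of 280 values of the members under alternatives, in 24 results, 267 kept direction and side of the threshold, and of 396 list counts, in 36 results, 352 stayed within 1.5 times. The members were chosen by these same differences. Their side of the threshold therefore describes the processing and is no test of them. The knock-down difference of PLK1 (-0.17) passed the threshold with dim genes left out and with a trended, robust variance (-0.17 in both). Its knock-down difference minus the 5 nM difference passed at 0.51 with ribosomal protein centring and at 0.26 after a repeated quantile step. With ribosomal protein centring PLK3 in 50 nM passed at -0.31 and PLK4 in 5 nM reversed to -0.058, the centring itself shifting all genes of an array by 1 value. Leaving out 1 array at a time gave 0.29 to 0.31 for PLK4 in 5 nM, which lost its call without either DMSO array or the second 5 nM array, and -0.18 to 0.078 for PLK3 in 50 nM, reversed without the second DMSO array. For DMSO against untreated it gave -0.053 to 0.13 for PLK4, -0.16 to 0.0036 for PLK2 and -0.22 to 0.041 for PLK3, reversed without the first untreated, the second untreated and the first DMSO array.

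Ribosomal protein centring changed list counts in 5 nM as follows: mitotic entry 15 lower, PLK1 partners 3 higher, centriole genes 2 higher, p53 targets 6 higher and 6 lower, immediate-early genes 3 lower, PLK2 and PLK3 substrates 0 higher. In 50 nM mitotic entry had 0 higher, p53 targets 1 higher, and the substrates 0 higher and 11 lower. With dim genes left out, mitotic entry had 1 higher in the knock-down and 2 in 50 nM, the centriole genes 5 higher in the knock-down, and the substrates 3 higher in 5 nM and 1 in 50 nM. With a trended, robust variance, the centriole genes had 5 higher in the knock-down, mitotic entry 2 higher in 50 nM, and the substrates 2 higher in 5 nM and 1 in 50 nM. A repeated quantile step gave 3 substrates higher in 5 nM and 4 centriole genes higher in 50 nM, averaged probe sets 2 substrates higher in 5 nM, and only the arrays compared 1 substrate higher in 50 nM. Apart from the scaling itself, the cause was not tested.

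Leaving out 1 array at a time, the knock-down gave 5 to 9 PLK1 partners lower (lowest without the first lacZ shRNA array), 4 to 8 centriole genes lower (4 without the first FLI1 or first lacZ shRNA array), and 7 to 9 immediate-early genes higher and 3 to 4 lower. In 5 nM the substrates had 1 to 2 higher (2 without the second DMSO array) and the immediate-early genes 1 to 2 lower (2 without the second 5 nM array). In 50 nM mitotic entry had 0 to 1 higher (0 without either DMSO array or the second 50 nM array), p53 targets 3 to 4 higher (3 without the first DMSO array or either 50 nM array) and the substrates 1 to 2 higher (1 without either DMSO array or the first 50 nM array).

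The labels give every group the replicate numbers 1 and 2, but nothing says that a number marks a shared culture or day, and differences between the arrays numbered 1 and 2 correlated at -0.45 to 0.34 between groups. With the replicate number as a block, PLK2 in 5 nM stayed at 4.79, no call of a member changed, and no list count moved by over 1.5 times. Arrays carry no read depth, and no detection call was used.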
